A study of Mus musculus with 120 samples.

Results

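The interferon-γ-induced GTPases were followed in implanted immunological niches (INs), porous polymer scaffolds that fill with host cells and can be biopsied again and again. The set was chosen by gene name, but with earlier results of these data known. Counts of members set beside shares of all genes are therefore a description. The set holds 10 of the 55487 genes listed in either count table: *Gbp2*, *Gbp3*, *Gbp4*, *Gbp5*, *Gbp7* and *Gbp9* of the guanylate-binding proteins (GBPs), and *Irgm1*, *Irgm2*, *Igtp* and *Iigp1* of the immunity-related GTPases (IRGs). All 10 had enough counts to be tested in both sequencing batches.

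Interferon-γ from T cells and natural killer cells binds its receptor, activates JAK1 and JAK2 and leads to transcription through GAS elements and to induction of IRF1. IRF1 and factors of the type I interferon response bind the ISRE element. GBP and IRG proteins assemble on membranes around intracellular microbes. In type 1 diabetes, interferon-γ is made by the T cells that infiltrate the pancreatic islets, and the GTPases are a common readout of how much interferon a tissue sees.

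RNA came from INs of female NOD/ShiLtJ mice, a strain that develops autoimmune diabetes spontaneously, and of NOR/LtJ mice, a related strain that does not. Of 120 samples, 74 formed batch 1 and 46 batch 2. In batch 1 the biopsies came from 5 NOR mice (23 samples, 4 each at 6 and 18 weeks) and 4 NOD nonprogressors, sampled when 6, 10, 14, 18 or 22 weeks old, and from 5 NOD progressors at 6 weeks of age, at 5, 3 and 1 weeks before onset of hyperglycemia and at onset. Batch 2 held no NOR mice: it had 7 nonprogressors at 6 weeks, 6 of them again at 14 weeks, and 5 progressors at 6 weeks, at the same times before onset and at onset, plus 8 progressor samples at 7 weeks before onset. Of those 8, 4 came from mice 1 to 4, which have no 6-week sample in batch 2 and whose numbers are those of batch 1 progressors, and 4 from mice 6, 7, 9 and 10. A further 6 nonprogressor samples of batch 1 were labelled by days after implantation and entered no comparison here. Progressors are NOD mice that became hyperglycemic and nonprogressors are NOD mice that did not. Mice are the replicates in the main strain test, where the biopsies of a mouse were summed. In the other tests each biopsy entered separately, and their p-values measure the pooled spread between biopsies within groups. Repeated biopsies of a mouse were treated there as independent, except in fits with the mouse as a block. The first INs were placed under the skin at 4 weeks of age and a removed IN was replaced by a new one, so the biopsy at 6 weeks is always of a first implant. Age, repeated surgery and the history of the implant therefore cannot be told apart in any comparison with 6 weeks.

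The total count of a library was between 4722396 and 56185434 in batch 1, with a median of 30186412. Batch 2 spanned 29029239 to 43880986 with a median of 36440356. Some libraries of batch 1 stood apart. In the 18-week biopsy of NOR mouse 5, 85.7% of the counts lay on 1 ribosomal RNA gene, and *Gbp3* had no count there. The shallowest library was that of nonprogressor mouse 3 at 18 weeks. *Rn7s2*, a gene of the 7SL RNA, took over 12% of the counts in the 4 nonprogressor libraries at 22 weeks, in progressor mouse 4 at 3 weeks before onset and in progressor mice 3 and 5 at onset. Marker genes of many cell types were detected in the biopsies. No gene of the macrophage, fibroblast, T cell, B cell, endothelial, epidermis, muscle or adipocyte marker lists was at 0 throughout a batch. Already 1 count in 1 library meets that condition, so it does not tell how common a cell type was. The lists of natural killer cell, neutrophil and dendritic cell markers are not described here. In such bulk samples, fewer cells of a type and less RNA per cell cannot be told apart. *Ifng*, which encodes interferon-γ itself, was too low to test, with 0 to 6 counts per library in batch 1 and 0 to 12 in batch 2.

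On GRCm38, *Gbp5*, *Gbp7*, *Gbp3* and *Gbp2* follow one another on chromosome 3 between 142493978 and 142638008, and *Gbp9* and *Gbp4* overlap on chromosome 5 between 105077630 and 105139586. *Irgm1* lies on chromosome 11 from 48861968 to 48871683, and *Igtp* and *Irgm2* lie on the same chromosome between 58199556 and 58222782. *Irgm2* and *Igtp* share 162 exon bases and *Gbp4* and *Gbp9* share 60, so reads there could be assigned to either gene.

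Promoters of 7 members were given by RefSeq (GRCm38.p6), in windows of 250 bases before and 50 bases after the start. The stretches just upstream of the start are shown because the factors downstream of interferon are known to bind there. Matches to the ISRE (GAAA, any 2 bases and GAAA again, which reads TTTC, any 2 bases and TTTC on the other strand) and to the GAS element (TTCNNNGAA) are in capitals, on the strand of the gene.
Gbp5: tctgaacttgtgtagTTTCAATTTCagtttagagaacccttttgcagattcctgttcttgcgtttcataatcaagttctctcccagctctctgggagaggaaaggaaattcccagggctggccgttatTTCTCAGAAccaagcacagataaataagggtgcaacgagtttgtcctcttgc
Gbp7: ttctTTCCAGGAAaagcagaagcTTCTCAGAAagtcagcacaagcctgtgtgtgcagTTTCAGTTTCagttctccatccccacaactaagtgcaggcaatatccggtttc
Gbp3: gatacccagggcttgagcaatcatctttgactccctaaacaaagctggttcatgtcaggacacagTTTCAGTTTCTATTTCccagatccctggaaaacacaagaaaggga
Gbp2: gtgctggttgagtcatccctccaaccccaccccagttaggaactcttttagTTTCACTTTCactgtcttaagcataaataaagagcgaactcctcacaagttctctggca
Irgm1: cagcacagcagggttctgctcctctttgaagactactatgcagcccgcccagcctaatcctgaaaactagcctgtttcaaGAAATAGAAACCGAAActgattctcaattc
Igtp: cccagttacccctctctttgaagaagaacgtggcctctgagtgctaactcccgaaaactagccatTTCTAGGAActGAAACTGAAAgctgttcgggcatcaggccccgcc
Irgm2: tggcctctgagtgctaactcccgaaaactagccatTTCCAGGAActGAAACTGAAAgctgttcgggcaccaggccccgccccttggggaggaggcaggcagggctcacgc
The *Gbp5* stretch is chr3:142496754-142496933, *Gbp7* is chr3:142530226-142530335, *Gbp3* is chr3:142559934-142560043 and *Gbp2* is chr3:142620553-142620662, all on the plus strand. *Irgm1* is chr11:48871421-48871530 on the minus strand, and *Igtp* (chr11:58199446-58199555) and *Irgm2* (chr11:58214867-58214976) are on the plus strand.

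The table gave 8 promoters for these 7 members, and an ISRE match was present in 7 of the 8, at least 1 per member, against 3.44% of the 32851 promoters in the table. A GAS match was present in 4 of the 8, those of *Gbp5*, *Gbp7*, *Igtp* and *Irgm2*, against 8.30% of all promoters. *Gbp3* and *Irgm1* each held a pair of ISRE matches that overlapped, from −45 to −30 in *Gbp3* and from −30 to −15 in *Irgm1*, where −1 is the base before the start. In *Igtp* and *Irgm2* the GAS match was followed after 2 bases by the same ISRE letters, GAAACTGAAA. *Gbp5* and *Gbp7* had 2 GAS matches each, one of those of *Gbp5* lying farther upstream, from −245 to −237. These are matches of letters and not measured binding sites.

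Among the members, *Gbp2* had the highest level per length, with a median of 10.8 CPM (counts scaled to the size of the library) per kb of exon in batch 1 and 13.4 in batch 2. The 3 IRGM-type regulators came next, in the order *Igtp* (5.27 and 6.92), *Irgm1* (4.00 and 6.17) and *Irgm2* (3.68 and 5.60 CPM per kb). *Gbp7* (3.48 and 4.57), *Gbp9* (2.91 and 3.32), *Gbp3* (2.71 and 2.57) and *Iigp1* (2.16 and 4.30) held the middle. *Gbp5* (0.824 and 0.904) and *Gbp4* (0.757 and 1.04 CPM per kb) were lowest. In the order of its own medians, batch 2 had every pair of neighbours lying closer together than the SD of the higher gene over the 46 libraries, and in batch 1 only the step from *Gbp2* to *Igtp* was larger than that (SD of *Gbp2* 5.38, n = 74).

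**Figure D1:**
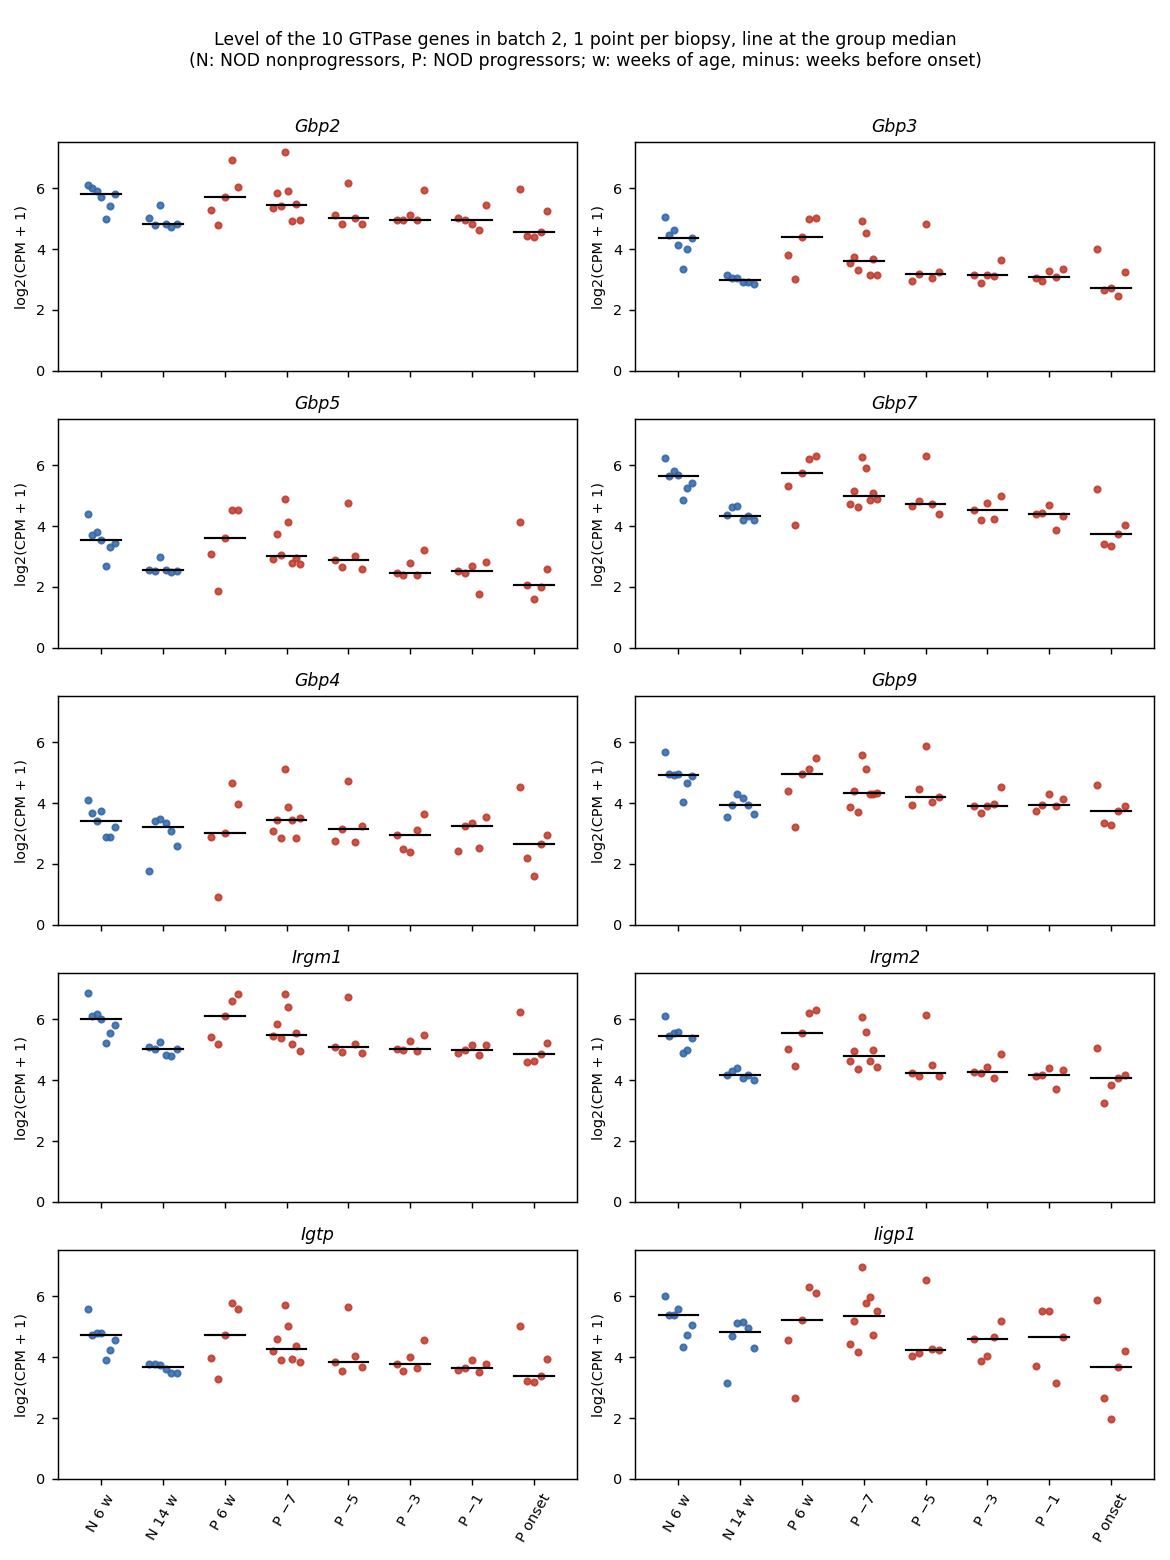
Level of each GTPase gene in the 46 biopsies of batch 2, as log2(CPM + 1) on the vertical axis. Each point is 1 biopsy, each line a group median, with nonprogressors in blue and progressors in red. Gbp3, Gbp7, Irgm2 and Igtp of nonprogressors sit lower at 14 weeks than in every 6-week sample. The share of all genes with such a gap was not counted. Single progressors stand high at 7 and 5 weeks before onset and at onset.

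The first question was how the genes behaved in NOD mice that did not become hyperglycemic. In batch 2, nonprogressors had lower GTPase RNA at 14 weeks than at 6 weeks. *Gbp3*, *Gbp7*, *Gbp9*, *Irgm1*, *Irgm2* and *Igtp* fell, 6 of the 10 members, where 29.1% of all 21808 genes tested changed and 13.4% fell (edgeR's quasi-likelihood test at a threshold of 0.05 after Benjamini-Hochberg adjustment). All 10 log2 fold changes were negative, with a median of −1.10 against 0.02 over all genes tested.

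*Gbp3* ranged from 9.11 to 32.3 CPM at 6 weeks (median 19.6, n = 7) and from 6.25 to 7.84 CPM at 14 weeks (median 6.91, n = 6). Every 14-week sample was below every 6-week sample. How many of all genes tested had groups without overlap was not counted, here or in the comparisons below. The difference was 2.82-fold, a log2 fold change of −1.50 (SE, standard error, 0.35; edgeR adjusted p = 0.0012).

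*Irgm2*, a regulator that keeps effector IRGs off the cell's own membranes, ranged from 28.4 to 67.2 CPM (median 42.8) at 6 weeks and from 15.1 to 19.9 CPM (median 17.0) at 14 weeks. The ranges did not overlap, and the log2 fold change was −1.33 (SE 0.32, edgeR adjusted p = 0.0019). *Gbp7* also showed no overlap, with 27.8 to 73.9 CPM (median 48.8) at 6 weeks and 17.2 to 24.1 CPM (median 19.3) at 14 weeks, and fell by 1.25 on the log2 scale (SE 0.33, edgeR adjusted p = 0.0042). *Igtp*, another IRGM-type regulator, had ranges of 13.9 to 46.5 and 10.2 to 12.6 CPM, again apart, and fell by 1.15 (SE 0.38, edgeR adjusted p = 0.0196).

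*Irgm1* fell by 1.05 (SE 0.32, edgeR adjusted p = 0.0112) and *Gbp9* by 1.05 (SE 0.32, edgeR adjusted p = 0.0128), with ranges that overlapped. For *Irgm1* they were 36.0 to 115 and 26.6 to 37.2 CPM, and for *Gbp9* 15.5 to 49.8 and 10.5 to 18.5 CPM. The remaining members did not pass. *Gbp5*, a GBP known for its part in inflammasome activation, had a log2 fold change of −1.15 (adjusted p = 0.053) and *Gbp2* of −0.81 (adjusted p = 0.0551). *Gbp4* had −0.48 and the effector *Iigp1*, which coats parasite vacuoles, −0.62 (adjusted p = 0.504 and 0.428 by edgeR).

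DESeq2 called 8 members, adding *Gbp2* and *Gbp5*. All shares of genes given beside member counts are those of the main edgeR fit at the adjusted threshold. They are not the shares for counts by DESeq2, by other fits or at an unadjusted p. With the mouse as a block, the same 6 passed. Mouse 5 had the highest 6-week value of all 10 members, and without it 4 members passed (*Gbp3*, *Gbp7*, *Irgm1* and *Irgm2*). Without mouse 8, *Igtp* was lost.

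Other interferon genes were counted from lists of known genes, which were also chosen with earlier results of these data known. The 22 type I interferon targets all fell in the same comparison (median −2.004), among them *Irf7* (−2.32), a transcription factor of the type I response, and *Rtp4* (−2.27). Of 16 other GBP and IRG genes, 4 fell and 0 rose (median −0.73). Of 11 genes of the interferon-γ pathway itself, 4 fell and 1 rose, and *Irf1*, a transcription factor that binds the ISRE, had −0.24 (adjusted p = 0.501 by edgeR). Of 22 other interferon-γ targets, such as chemokines and antigen-processing genes, 1 fell and 4 rose, with a median of −0.13.

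Cell markers moved in the same biopsies. Fibroblast markers fell in 5 of 6 genes, from a summed level of 32854 to 59993 CPM at 6 weeks to one of 10983 to 23286 CPM at 14 weeks, without overlap. Muscle markers rose in 5 of 5 genes (2.47 to 422 against 9.23 to 5727 CPM summed) and adipocyte markers in 5 of 5 (39.6 to 58.1 against 19.6 to 725 CPM summed). Macrophage markers had 4 genes lower and 1 higher, with summed ranges of 7300 to 9560 and 5814 to 8772 CPM. The part of these shifts in the GTPase result was not tested.

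**Figure D2:**
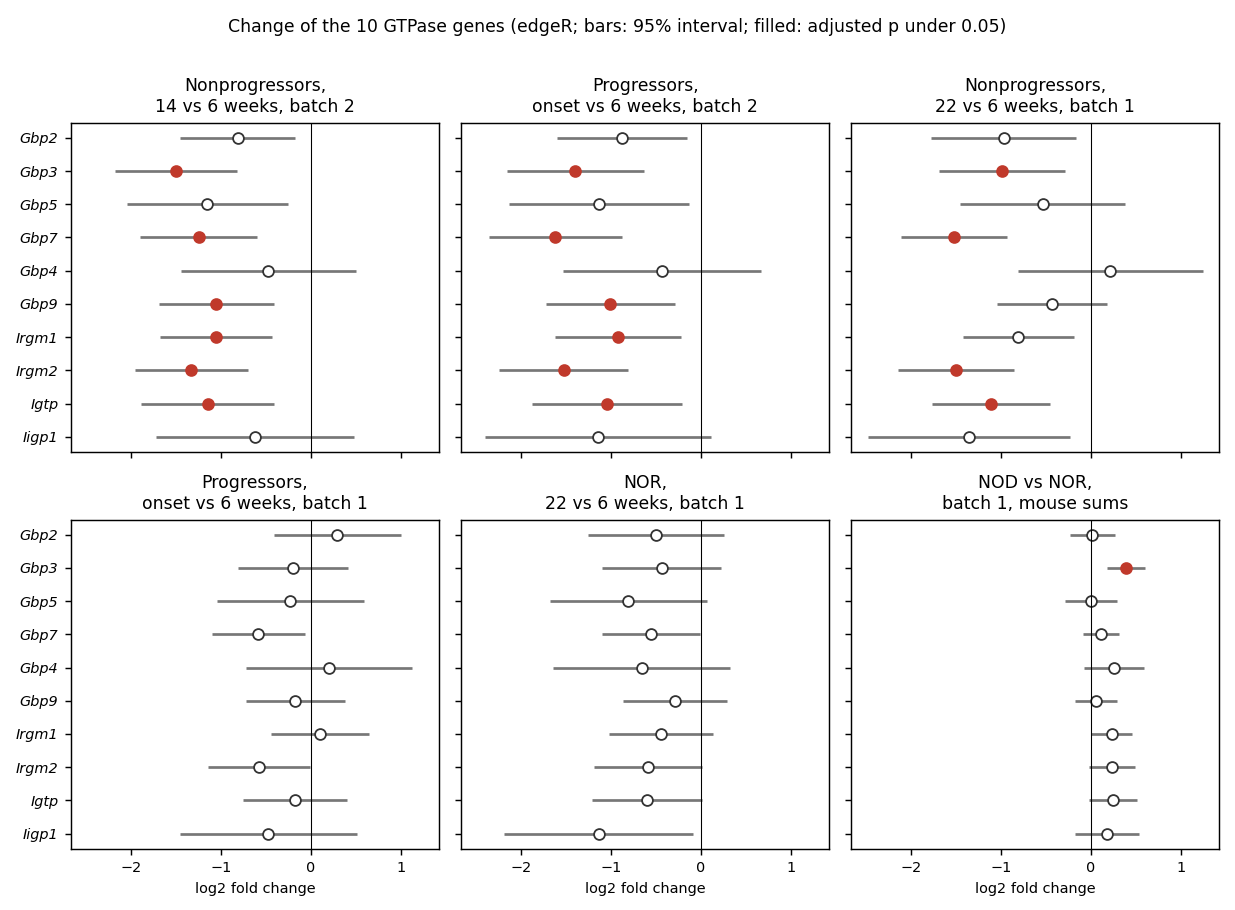
Log2 fold change of each GTPase gene in 6 comparisons, on the horizontal axis. Points are edgeR estimates with their 95% interval, filled where the adjusted p was under 0.05; 6 members are filled in each of both batch 2 comparisons, 4 in nonprogressors at 22 weeks, 1 between the strains and 0 in batch 1 progressors at onset and in NOR.

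Batch 1 followed 4 other nonprogressors up to 22 weeks. Over the 5 ages, *Gbp7* (adjusted p = 0.0017) and *Irgm2* (adjusted p = 0.0039) changed by edgeR's F test, 2 of 10 members where 15.8% of 22330 genes changed. At 22 weeks against 6 weeks, 4 members fell, *Gbp7*, *Irgm2*, *Igtp* and *Gbp3*, where 20.6% of genes changed and 10.5% fell. The median was −0.98 for the members and −0.04 for all genes.

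In nonprogressor mice 1 to 4, *Gbp7* had 54.7, 21.6, 39.8 and 33.8 CPM at 6 weeks and 12.3, 15.7, 12.5 and 11.8 CPM at 22 weeks. The older samples were all lower, and the log2 fold change was −1.52 (SE 0.30, edgeR adjusted p = 0.00029). *Irgm2* had 40.6, 14.6, 26.9 and 24.1 CPM in the same mice at 6 weeks and 8.94, 9.35, 9.93 and 9.35 CPM at 22 weeks.

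The *Irgm2* groups did not overlap either, with a log2 fold change of −1.50 (SE 0.33, edgeR adjusted p = 0.00097). *Igtp* fell by 1.11 (adjusted p = 0.0139) and *Gbp3* by 0.99 (adjusted p = 0.0393 by edgeR), the latter lost with the mouse as a block, where 3 members passed. *Gbp4* was the exception in direction, at 0.21 (adjusted p = 0.818). Without mouse 1, which was highest at 6 weeks, *Gbp7* and *Irgm2* still passed at 22 weeks and no member passed the F test over age. Without mouse 4 the same pair passed at 22 weeks, without mouse 3 *Gbp3* was lost, and without mouse 2 *Iigp1* passed as well and 4 members passed the F test.

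At the ages between, 0 members passed at 10 weeks (6 at an unadjusted p under 0.05, 1 by DESeq2, where edgeR called 0.9% of all genes) and 0 at 18 weeks (4 unadjusted, 1 by DESeq2, 1.29% of all genes). At 14 weeks *Gbp7* (−1.08, adjusted p = 0.0247) and *Irgm2* (−1.21, adjusted p = 0.0235) fell, where 4.59% of all genes changed and 2.05% fell. That count rested on single mice, with 0 members without mouse 1, 3 or 4 and 4 members without mouse 2. When the change from 6 to 14 weeks was tested between the batches, 0 of 10 members passed by edgeR (0 unadjusted; 0.733% of genes).

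The type I targets fell in 19 of 22 genes between 6 and 22 weeks (median −1.48). Fibroblast markers fell in 5 of 6 genes and epidermis markers in 5 of 5 in that comparison, the latter with a summed 0.762 to 509.8 CPM at 6 weeks and 1.33 to 3.81 CPM at 22 weeks. Their part in the result was not tested. *Rn7s2* took 12.8, 19.2, 24.3 and 30.5% of the counts in mice 1 to 4 at 22 weeks, whereas the top gene of the 6-week libraries took 2.08 to 4.43%. In a fit without *Rn7s1* and *Rn7s2*, chosen after seeing the data, the same 4 members passed at 22 weeks and the same 2 at 14 weeks and over age. What else differed in libraries with much 7SL RNA was not tested.

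**Figure D3:**
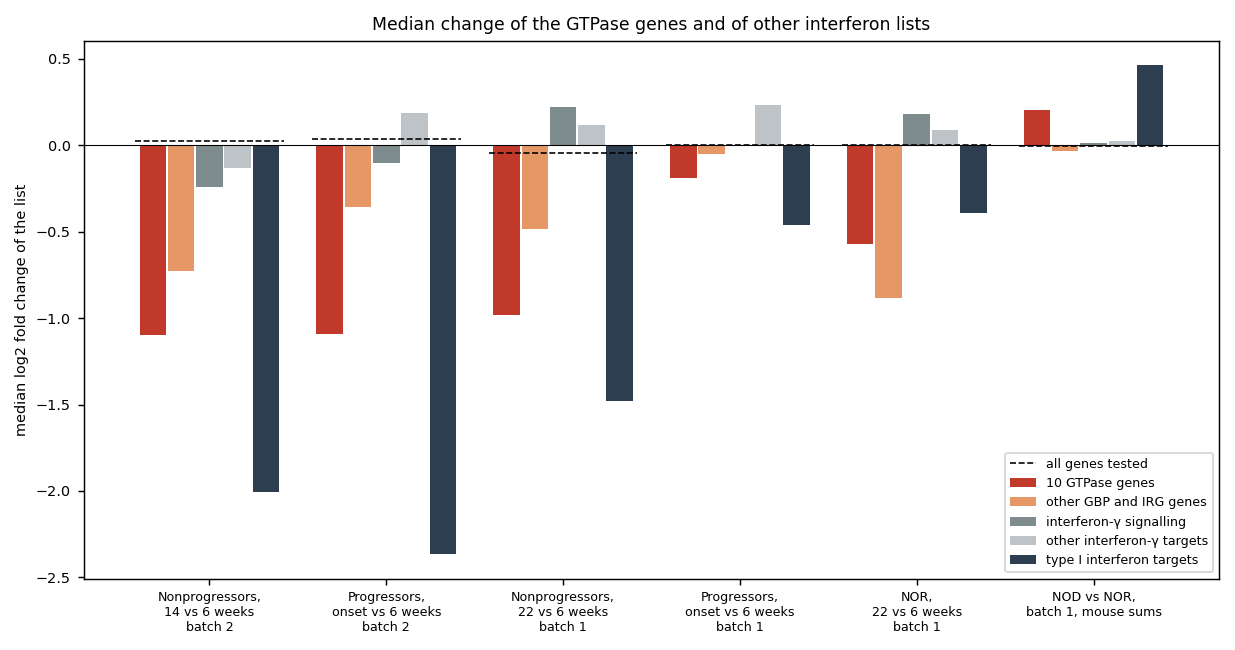
Median log2 fold change of the 10 GTPase genes and of 4 other interferon lists in 6 comparisons, with a dashed line at the median of all genes tested. The type I target bars reach further down than the GTPase bars in both batch 2 comparisons and in nonprogressors at 22 weeks, while the bars of the other interferon-γ targets stay near 0.

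Progressors addressed whether the GTPases move before or at onset. In batch 2, 4 members changed over the 6 times, *Irgm2* (adjusted p = 0.0017), *Gbp7* (adjusted p = 0.0024), *Gbp3* (adjusted p = 0.0091) and *Irgm1* (adjusted p = 0.0361 by edgeR's F test), where 32.9% of genes changed. The direction was down from 6 weeks. DESeq2 called 8 members, and the fit with the mouse as a block called 3, without *Irgm1*. Leaving out 1 mouse gave between 2 members (without mouse 9) and 8 (without mouse 6).

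At onset 6 members were lower than at 6 weeks, *Gbp3*, *Gbp7*, *Gbp9*, *Igtp*, *Irgm1* and *Irgm2*, where 36.8% of genes changed and 18.3% fell. All 10 log2 fold changes were negative (median −1.09 against 0.04 for all genes).

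*Gbp7* had 38.4, 15.5, 52.0, 72.1 and 77.4 CPM at 6 weeks in progressors 6 to 10, and 36.2, 9.71, 9.24, 12.4 and 15.4 CPM at onset. Each mouse was lower at onset than at 6 weeks, but the groups overlapped, since mouse 6 was still high at onset and mouse 7 was low from the beginning. The log2 fold change was −1.62 (SE 0.38, edgeR adjusted p = 0.00076).

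*Irgm2* had 31.8, 21.2, 45.7, 73.3 and 77.2 CPM at 6 weeks and 32.009, 8.47, 13.4, 15.8 and 16.8 CPM at onset. Mouse 6 did not fall and the other 4 did, for a log2 fold change of −1.53 (SE 0.36, edgeR adjusted p = 0.00097). *Gbp3* behaved alike, with 12.9, 7.09, 20.1, 30.8 and 31.2 CPM at 6 weeks, 14.9, 5.33, 5.53, 4.52 and 8.40 CPM at onset and a log2 fold change of −1.40 (SE 0.39, edgeR adjusted p = 0.0041).

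For *Gbp9* (−1.01, adjusted p = 0.0271), *Irgm1* (−0.93, adjusted p = 0.0385) and *Igtp* (−1.04, adjusted p = 0.0491 by edgeR) the call was closer to the threshold. With the mouse as a block, *Gbp2* passed in place of *Igtp*. Without mouse 9, the highest in *Gbp2* at 6 weeks, only *Gbp7* and *Irgm2* passed, and without mouse 8 or mouse 10 these 2 and *Gbp3* did. Without mouse 6, all members but *Gbp4* passed. *Igtp* was also lost without mouse 1, 2 or 3, which have only samples at 7 weeks before onset in this batch, and *Irgm1* without mouse 7. DESeq2 called 7 members, adding *Gbp2*.

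Members were lower before onset as well. At 1 week before onset 6 members were lower than at 6 weeks, *Irgm2* (−1.55, adjusted p = 0.0020), *Gbp5*, *Gbp7*, *Gbp3*, *Igtp* and *Irgm1*, where 22.4% of genes changed and 11.2% fell. At 3 weeks before onset *Irgm2*, *Gbp3*, *Gbp7* and *Irgm1* were lower, 4 members, where 18.5% of genes changed and 9.37% fell. Both counts rested on the 2 progressors with the highest 6-week values of *Gbp7*: at 1 week before onset only *Irgm2* passed without mouse 9 or without mouse 10, and at 3 weeks 0 members passed without mouse 9 and 1 without mouse 10.

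Earlier, no member passed. At 5 weeks before onset the count was 0 by edgeR and by DESeq2 (2 at an unadjusted p under 0.05; 13.7% of all genes by edgeR), and at 7 weeks it was 0 by both (0 unadjusted; 22.1% of all genes). At 5 weeks before onset mouse 8 was high in all members: *Gbp7* was 78.0 CPM there and 24.3, 27.1, 25.6 and 20.1 CPM in mice 6, 7, 9 and 10. Without mouse 8, *Gbp3*, *Irgm1* and *Irgm2* passed at that time. At 7 weeks mouse 4 was the highest in all members, with 144 CPM of *Gbp2* against 29.6 to 59.4 CPM in the other 7 mice, and without it *Irgm2* passed. Mice 1 to 4 add to the 7-week group without a 6-week sample of their own in this batch, so that contrast is partly between different mice. All these contrasts share the same 5 samples at 6 weeks, so they are not independent of each other.

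In the comparison of onset with 6 weeks, type I targets fell in 21 of 22 genes (median −2.37) and other GBP and IRG genes in 2 of 16. Other interferon-γ targets rose in 8 of 22 and fell in 1. *Irf1* had −0.10 (adjusted p = 0.803 by edgeR). Fibroblast markers fell in 6 of 6 genes (31913 to 58654 CPM summed at 6 weeks, 4922 to 14853 at onset), B cell markers rose in 5 of 6 (19.6 to 26.4 against 28.1 to 71.3 CPM) and T cell markers in 3 of 10 (6.86 to 16.6 against 11.8 to 37.4 CPM). Their part in the GTPase result was not tested.

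The 5 progressors of batch 1 were tested in the same way. Over time 0 members passed edgeR's F test (1 unadjusted, *Gbp7* by DESeq2), where 21.9% of genes changed. At onset the log2 fold changes ran from −0.58 in *Gbp7* and *Irgm2* to 0.29 in *Gbp2*, with 0 called by edgeR and by DESeq2 (1 unadjusted; 17% of all genes by edgeR).

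*Gbp7* was 32.8, 29.5, 28.0, 32.7 and 30.8 CPM at 6 weeks and 17.4, 25.3, 24.5, 24.2 and 11.2 CPM at onset in progressors 1 to 5. The onset samples of *Gbp7* were all lower, but it was not called (adjusted p = 0.114 by edgeR). The share of all genes with such a gap was not counted. In every other member the 2 groups overlapped. For *Irgm2* they ranged from 16.8 to 25.0 CPM at 6 weeks and from 7.19 to 19.1 CPM at onset. *Gbp2* was 38.0, 27.2, 28.4, 46.3 and 28.2 CPM at 6 weeks and 20.3, 21.3, 99.3, 44.5 and 20.97 CPM at onset, with mouse 3 far above the rest. In the onset libraries of mice 3 and 5, *Rn7s2* took 13.9 and 13.99% of the counts.

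Before onset, *Gbp7* was lower at 3 weeks (−0.86, adjusted p = 0.0202), the only member called there, where 14.5% of genes changed and 6.51% fell. It was lost without mouse 2 or mouse 4, whose library at that time had 17.5% of its counts on *Rn7s2*, and it passed in the fit without *Rn7s1* and *Rn7s2*. *Irgm2* passed beside it without mouse 1 and by DESeq2. At 1 week before onset 0 members passed by edgeR and DESeq2 (2 unadjusted; 8.36% of all genes), and at 5 weeks 0 passed (2 unadjusted, *Gbp7* by DESeq2; 19.7% of all genes), with *Gbp7* and *Irgm2* passing without mouse 2.

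Tested against each other, the changes from 6 weeks to onset were lower in batch 2 than in batch 1 by 0.62 to 1.18 on the log2 scale, but 0 of 10 members passed (5 unadjusted, smallest adjusted p = 0.126 by edgeR, in *Gbp3*), where 7.57% of genes did. The changes from 6 weeks to 5, 3 and 1 weeks before onset gave 0 members each (0, 0 and 4 unadjusted), where 0.746%, 0.306% and 0.189% of genes differed. The batches already differed at 6 weeks. Progressors of batch 2 had higher *Irgm1* (log2 difference 1.07, adjusted p = 0.0047) and *Irgm2* (0.96, adjusted p = 0.0128) than those of batch 1, where 39.7% of genes differed between the batches and 19.6% were higher in batch 2. For nonprogressors at 6 weeks (32.4% of genes), nonprogressors at 14 weeks (27.5%) and progressors at onset (31.1%), edgeR called 0 members between the batches, with 0 unadjusted. For *Irgm1* the 6-week values were 23.1 to 33.0 CPM in batch 1 and 35.2 to 112 CPM in batch 2, scaled within each batch. Batch and cohort of mice cannot be told apart here.

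**Figure D4:**
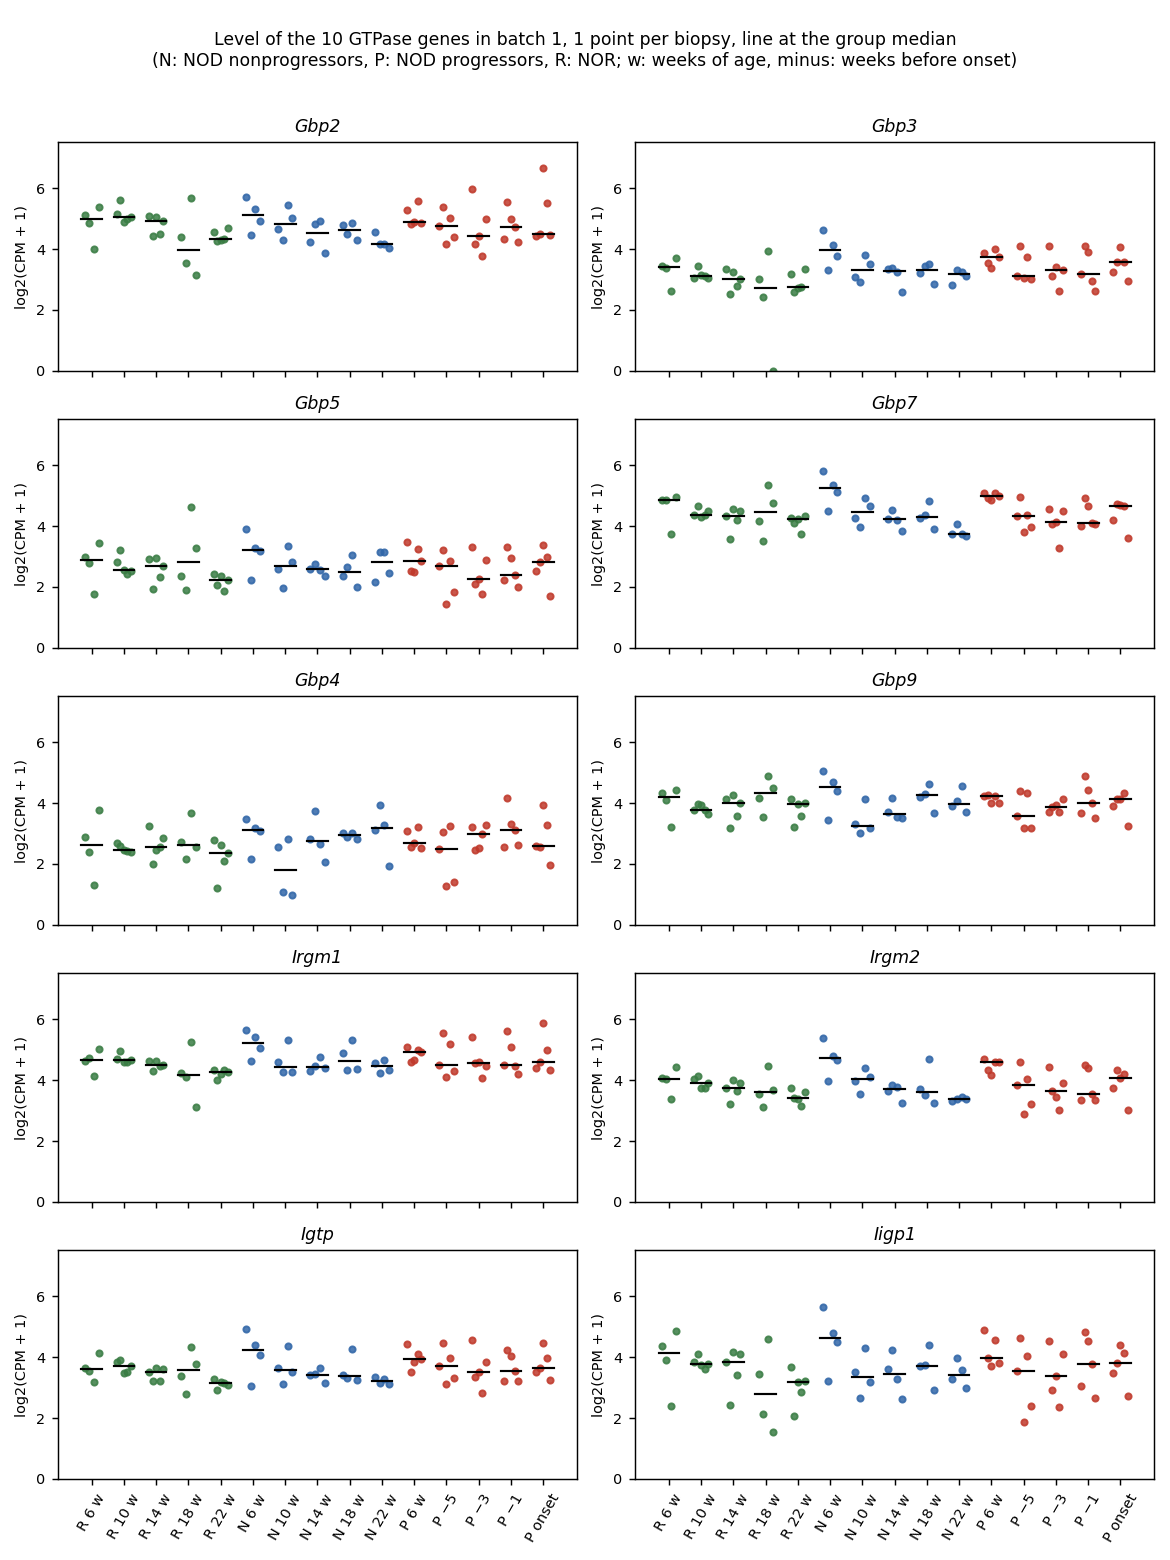
Level of each GTPase gene in the time-series biopsies of batch 1, as log2(CPM + 1) on the vertical axis. Each point is 1 biopsy, each line a group median, with NOR in green, nonprogressors in blue and progressors in red; the groups overlap at most times, nonprogressors at 6 weeks reach the highest Gbp7 and Irgm2 values, and Gbp3 is at 0 in 1 NOR library at 18 weeks.

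Progressors and nonprogressors were compared at 6 weeks, before any mouse was hyperglycemic. In batch 1, 0 members differed by edgeR (0 unadjusted, 0 by DESeq2), where 0.0582% of genes did. All 10 log2 fold changes were negative, from −0.07 in *Gbp2* to −0.53 in *Iigp1*. *Irgm1* had 33.0, 23.1, 24.1, 30.8 and 29.6 CPM in progressors and 49.1, 23.7, 41.5 and 31.9998 CPM in nonprogressors, and these ranges overlapped.

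In batch 2, 0 members differed (0 unadjusted, 0 by DESeq2), where 0% of genes did by edgeR and 349 had an unadjusted p under 0.05. There 9 of 10 log2 fold changes were positive, from −0.13 in *Gbp9* to 0.22 in *Igtp*. For *Irgm2* in batch 2 the log2 difference was 0.21 (SE 0.33), with an approximate 95% interval from −0.43 to 0.85. With these numbers of mice, the values are thus compatible with no difference and with one of either sign inside that interval.

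Onset was also set against the nonprogressors. At onset against nonprogressors at 18 weeks in batch 1, 0 members differed (1 unadjusted, 0 by DESeq2; 0.00896% of genes), with *Gbp2* the furthest at 0.81 (adjusted p = 0.655). At onset against nonprogressors at 14 weeks in batch 2, 0 members differed (0 unadjusted, 0 by DESeq2, where 17.5% of genes did by edgeR). The log2 fold changes ran from −0.38 in *Iigp1* to 0.32 in *Igtp*. Per the paper, onset came after 14 weeks of age in all progressors, so the ages in this comparison are not matched. The change from 6 weeks to onset in progressors was also tested against the change over age in nonprogressors. That was from 6 to 14 weeks in batch 2, again not matched in age, and from 6 to 18 weeks in batch 1. By edgeR 0 of 10 members passed in batch 2 (0 unadjusted, 1.61% of genes) and 0 in batch 1 (0 unadjusted, 0.00896% of genes).

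In NOR mice, over the 5 ages 0 members changed by edgeR's F test (1 unadjusted, 0 by DESeq2), where 12.8% of genes did. At 22 weeks against 6 weeks all 10 log2 fold changes were negative, from −0.29 in *Gbp9* to −1.14 in *Iigp1*, with 0 called by edgeR and DESeq2 (2 unadjusted; 0.963% of genes). At 10, 14 and 18 weeks 0 members passed by edgeR or DESeq2 (0 unadjusted each), where 0.305%, 0.0134% and 2.23% of genes changed. *Iigp1* had 19.6, 14.0, 4.24 and 27.9 CPM at 6 weeks in mice 1, 2, 4 and 5, and 11.8, 3.20, 8.01, 6.20 and 8.30 CPM at 22 weeks in mice 1 to 5. The ranges overlapped through the low 6-week sample of mouse 4.

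Between the strains, the biopsies of each batch 1 mouse were summed to 1 library, giving 5 NOR and 9 NOD mice. Of the NOD mice, the 5 progressors were mostly sampled by time to onset and not at the ages of the NOR mice. Ages were not balanced within NOR either. NOR mouse 3, the lowest NOR mouse in *Gbp3*, had no biopsy at 6 weeks, and NOR mouse 2 had none at 18 weeks. *Gbp3* was higher in NOD, 1 of 10 members, where 8.98% of 23387 genes differed and 3.87% were higher in NOD. The 5 NOR mice had 8.59, 7.56, 6.81, 8.08 and 8.78 CPM of *Gbp3* (7.96 ± 0.802, SD, n = 5), and the 9 NOD mice ranged from 7.78 to 12.6 CPM around a median of 10.8 (10.4 ± 1.62, SD, n = 9).

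Of the 9 NOD mice, 7 were above all NOR mice and the others, progressor 5 (7.78 CPM) and nonprogressor 2 (8.68 CPM), lay within their range. The log2 fold change was 0.39 (SE 0.11, edgeR adjusted p = 0.0389). This call rested on few mice: it was lost in 10 of 14 fits that each left out 1 mouse, with nonprogressors alone (adjusted p = 0.0921), with progressors alone (adjusted p = 0.0884) and in the limma-voom fit with the mouse as a block (adjusted p = 0.082), and the log2 fold change stayed between 0.34 and 0.43 when any 1 mouse was left out. Without the library dominated by ribosomal RNA it was 0.39 and passed.

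The other 9 members had log2 fold changes from −0.0029 in *Gbp5* to 0.26 in *Gbp4*, and none passed. For *Gbp2* the means were 29.2 ± 3.36 CPM (SD, n = 5) in NOR and 29.5 ± 5.53 CPM (SD, n = 9) in NOD. Whether the strain difference depended on age was tested by edgeR's interaction test, which called 0 of 10 (0 unadjusted, 0 by DESeq2; 2.19% of genes). At single ages, nonprogressors against NOR gave 0 members at each of the 5 ages by edgeR, with 3, 0, 0, 1 and 1 unadjusted from 6 to 22 weeks, where 1.75%, 1.96%, 2.06%, 4% and 7.62% of genes differed.

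Relatives of the members did differ between strains. Of 16 other GBP and IRG genes, 2 were higher in NOD, *9930111J21Rik2* (2.54) and *Tgtp2* (1.48), and 4 were lower, among them *Tgtp1* (−1.06). *Tgtp1* and *Tgtp2* are near-identical copies between which the counting can split reads, so their values are uncertain. Type I interferon targets were higher in 6 of 22 genes and lower in 1, *Xaf1* (−1.12), with a median of 0.46 and 21 positive, *Irf7* (0.78) and *Rtp4* (0.73) among those called. Other interferon-γ targets had 0 higher and 2 lower, *Ciita* (−0.33) and *B2m* (−0.30), and the 11 pathway genes had 0 called by edgeR (1 unadjusted), with *Irf1* at 0.0075. Macrophage markers were lower in NOD in 5 of 10 genes.

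Genes near the members were checked as well, within 1 Mb. Around the chromosome 3 cluster, which holds *Gbp3*, 0 of 9 tested neighbours differed between the strains by edgeR. Around *Gbp9* and *Gbp4* on chromosome 5 it was 5 of 24, around *Irgm1* 7 of 30, around *Igtp* and *Irgm2* 17 of 38 and around *Iigp1* 4 of 25, against 8.98% of all genes.

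The members moved together from biopsy to biopsy. After the group mean was removed, Pearson's r between pairs of members had a median of 0.807 in batch 1 (range 0.564 to 0.912, 74 libraries) and 0.901 in batch 2 (0.724 to 0.971, 46 libraries). Points share library, depth and cell makeup, and repeated biopsies share a mouse, so these values are a description. In batch 1 *Gbp3* was the loosest, with a median r of 0.629 to the others, and 0.856 without the NOR library dominated by ribosomal RNA.

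**Figure D5:**
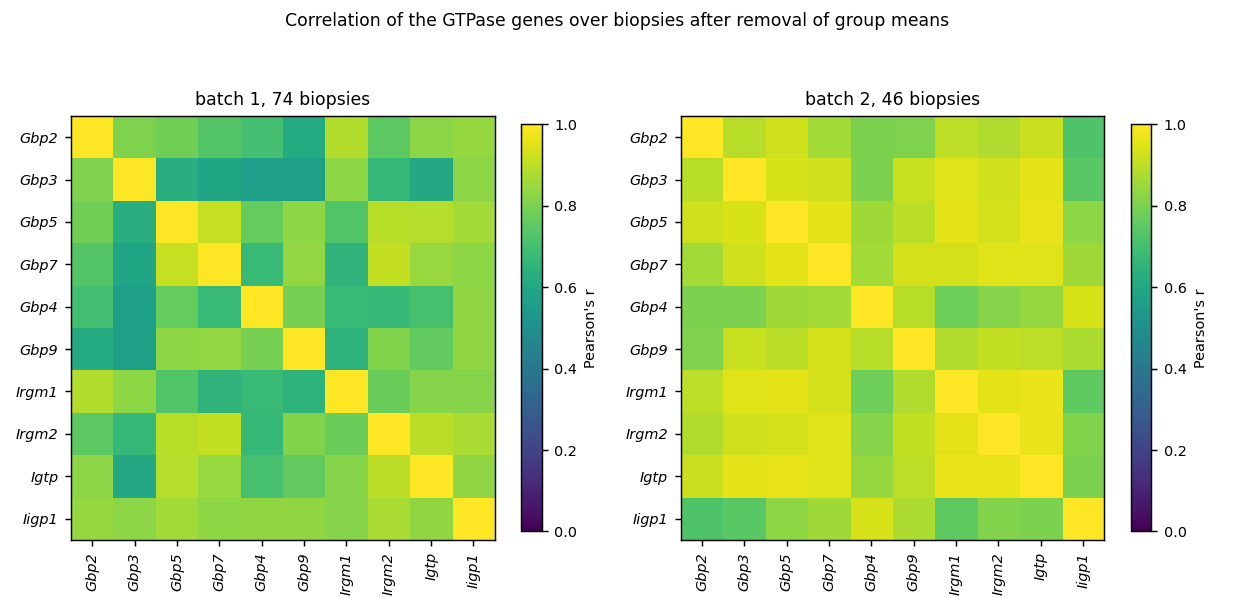
Pearson's r between each pair of GTPase genes over biopsies, on log2(CPM + 1) after group means were removed, with batch 1 (74 biopsies) on the left and batch 2 (46) on the right. The colour scale runs from 0 to 1, all pairs are above 0.5, and Gbp3 has the lowest median r (0.629) in batch 1. The wider range of batch 1 includes the NOR library dominated by ribosomal RNA. Without that library, r in batch 1 ran from 0.668 to 0.917 and the median r of Gbp3 was 0.856. In batch 2 r ran from 0.724 to 0.971.

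Among the 10 genes whose deviations were most like the mean of the members, ranked by the lower r of both batches among 21153 genes, were *Gbp6* (0.952 and 0.976), *Gm12250* (0.922 and 0.951), *Tgtp2* (0.920 and 0.980) and *Irf1* (0.861 and 0.889). *Ifi47*, *Stat2*, *Gm4070*, *Gbp8* and *Gm5970* were also among them, with r from 0.829 to 0.859 in batch 1. Chosen after the values were seen, 3 further genes also ranked high among the 21153. The chemokine gene *Cxcl9* ranked 15 (r 0.792 and 0.886). The type I target *Isg15* ranked 73 (0.611 and 0.723) and the T cell gene *Cd3e* ranked 91 (0.552 and 0.567). With the mouse mean also removed, 9 of the 10 genes most like the members were again among the 10 most alike. In that setting *Cxcl9* ranked 19, *Cd3e* 59 and *Isg15* 87, so the order of the last 2 was reversed.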

How the data were processed

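RNA of IN biopsies was sequenced in 2 batches on different NovaSeq instruments. Per the labels and the submitters' processing notes, the authors trimmed reads with cutadapt, aligned them to GRCm38 with STAR and deposited expected counts per gene as estimated by RSEM, with FastQC and MultiQC for quality. Versions are not given in the sources used here. RSEM shares reads between similar genes, and reads of both strains were aligned to the same reference.

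The expected counts were rounded to whole numbers. Genes were filtered with filterByExpr, scaled by TMM and tested in edgeR 4.0.16 (R 4.3.3) by the quasi-likelihood test, with Benjamini-Hochberg adjustment over all genes tested and a threshold of 0.05. Each batch was 1 fit with 1 mean per group. For the strains, counts were summed per mouse. CPM are TMM-scaled, and likeness and figures used log2(CPM + 1). The standard error of a log2 fold change was taken from the F statistic. Alternatives were DESeq2 1.42.0, limma-voom 3.58.1, no filter, the mouse as a block, leaving out single mice and, chosen after seeing the data, leaving out the 7SL RNA genes. On simulated data with a log2 change of 1, the strain test recovered 78.5% of changed genes, progressors against nonprogressors at 6 weeks in batch 1 38% and nonprogressors at 14 against 6 weeks in batch 2 50.5%. The simulated counts were independent, with a spread set by the mean level of a gene and no mouse effect. These shares are therefore not the power for the members.

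Mouse numbers in the labels pair the samples of 1 mouse. Over 2000 genes, the mean correlation of deviations within a mouse was −0.0346 to 0.0309, against −0.00629 to 0.0103 between other mice. Biopsies of 1 mouse were more alike than those of other mice only in batch 1 nonprogressors (0.0309 against −0.00629). These values therefore do not bear out the pairing by themselves. The text names the 10 members, *Ifng*, *Irf1*, up to 3 called genes per list with the largest strain difference, the 10 genes most like the members, and counts of neighbours within 1 Mb, except that 1 gene of this rule is not reported here. The members and lists were chosen with earlier results of these data known. Gene positions came from the GRCm38 annotation, which matched 55227 genes, and promoters from RefSeq. Figures were drawn with matplotlib 3.10.9.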

Additional observations from a re-analysis of the deposited data

Results flagged for a closer look

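In each group of 4 to 10 samples, the highest and lowest sample of each member was compared with the others by Dixon's test. Of 230 sets of values, 31 held a sample that stood apart, most of them high. The test was run on CPM without a log scale. Its chance rate of about 1 in 20 holds for normally distributed values, so the count cannot be set against that rate. The sets are not independent, since the members move together.

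In batch 2, 21 of the sets came from 3 samples, all of them high. Progressor mouse 8 at 5 weeks before onset stood apart in all 10 members, with 71.1 CPM of *Gbp2*, 27.0 of *Gbp3*, 25.4 of *Gbp4*, 26.2 of *Gbp5*, 78.0 of *Gbp7*, 57.8 of *Gbp9*, 49.2 of *Igtp*, 91.9 of *Iigp1*, 106 of *Irgm1* and 68.6 CPM of *Irgm2*. Progressor mouse 4 at 7 weeks before onset stood apart in 5 members, with 144 CPM of *Gbp2*, 33.6 of *Gbp4*, 28.9 of *Gbp5*, 51.8 of *Igtp* and 124 CPM of *Iigp1*. Progressor mouse 6 at onset stood apart in 6 members, with 22.1 CPM of *Gbp4*, 16.5 of *Gbp5*, 36.2 of *Gbp7*, 31.6 of *Igtp*, 58.0 of *Iigp1* and 75.0 CPM of *Irgm1*.

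The remaining high values of batch 2 were those of progressor mouse 10 at 3 weeks before onset (*Gbp2* 59.6 and *Gbp9* 22.3 CPM), nonprogressor mouse 5 at 6 weeks (*Gbp9* 49.8 and *Igtp* 46.5 CPM) and nonprogressor mouse 7 at 14 weeks (*Gbp2* 42.1 and *Gbp5* 6.98 CPM). In batch 1 they were NOR mouse 2 at 10 weeks (*Gbp3* 9.98 and *Irgm1* 30.2 CPM) and nonprogressor mouse 3 at 18 weeks (*Igtp* 18.3 CPM), and NOR mouse 4 at 6 weeks was low in *Gbp7* (12.3 CPM).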

How the results depend on the processing

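Between the strains, 0 members passed in limma-voom with the mouse as a replicate block, with nonprogressors only, with progressors only (1099 genes called) and at 6 weeks only (503 genes), and leaving out single mice gave 0 to 1 members and 1433 to 2081 genes. *Gbp2*, close to 0, was −0.086 with nonprogressors only and −0.057 to 0.061 without single mice, and *Gbp9* −0.0071 to 0.10. *Gbp5* turned positive in DESeq2 (0.0047), limma-voom (0.014), without a filter (0.0050), without the 18-week library of NOR mouse 5 (0.0048), with nonprogressors only (0.096) and at 6 weeks only (0.29), and was −0.071 to 0.089 without single mice. The strain by age test called 1130 genes in DESeq2, 226 in limma-voom and 84 in edgeR with the mouse as a block, 269 without a filter and 12 to 692 without single mice. DESeq2 called 8 members over time in batch 2 progressors and 1 in batch 1, where a fit of both batches called 3 (7574 genes). It also called 1 member at 10 weeks and 1 at 18 weeks in batch 1 nonprogressors, and 2 at 3 weeks and 1 at 5 weeks before onset in batch 1. Progressors against nonprogressors at 6 weeks gave 42 genes in batch 1 and 13 in batch 2 by DESeq2, 1 in each from both batches together and 0 to 57 in batch 1 without single mice. Onset against nonprogressors at 18 weeks gave 11 genes in DESeq2, 0 without a filter, 1 without the shallowest library and 0 to 15 without single mice. The short ISRE form was in 8.56% of promoters. Leaving out single mice gave, for members in batch 2, 4 to 6 (nonprogressors at 14 weeks; 4626 to 6947 genes), 2 to 8 (progressors over time; 5511 to 7227 genes), 2 to 9 (onset), 1 to 7, 0 to 4, 0 to 3 and 0 to 1 (1, 3, 5 and 7 weeks before onset). In batch 1 it gave 0 to 4 (nonprogressors over age; 1328 to 2887 genes), 0 to 4 (14 weeks), 2 to 5 (22 weeks), and 0 to 2 (3 and 5 weeks before onset), with 1226 to 2947 genes for NOR over age, 2584 to 4540 for progressors over time, and, in batch 2, 2624 to 4697 for onset against 14 weeks. The causes were not tested. With the mouse as a block, calls of members changed only as given in the results above (3 at 22 weeks, 3 over time, 6 at onset with 1 exchanged).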

Other observations

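In batch 1, 6 nonprogressor samples were labelled by days after implantation, 2 each at 31, 38 and 108 days, and were not tied to the mice followed by age. *Gbp7* was 37.5 and 28.8 CPM at 31 days, 28.5 and 30.0 CPM at 38 days and 27.3 and 23.1 CPM at 108 days. *Irgm2* was 28.6 and 20.4, 18.5 and 15.001, and 20.96 and 17.8 CPM at the same times. *Gbp3* was 17.3 and 10.2, 9.65 and 8.83, and 11.4 and 8.32 CPM.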
